A study of Mus musculus with 96 samples.

Results

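Genes of the amino acid response and of cytoplasmic aminoacyl-tRNA synthesis were followed in mouse bone marrow-derived macrophages given 1 of 10 small molecules before lipopolysaccharide (LPS), the bacterial cell wall component that macrophages sense. The genes were listed by name: 40 of the 23481 gene symbols counted, made up of 22 enzymes, transporters and regulators described as targets of the transcription factor ATF4 and 18 cytoplasmic tRNA synthetases. Of these, 24 had enough counts to be tested and 16 did not. The macrophages were grown from wild-type male C57BL/6 mice aged 8 weeks in conditioned medium with MCSF. In 10 groups the cells were given Halofuginone, BrefA, Tunicamycin, Torin, tBHQ, pGE2, Dexa, Baflo, ZVAD or Caspase-1, named as labelled, for 30 min and then LPS for 4 h. DMSO wells received LPS without a compound, and NoStim wells received no LPS and have no stated vehicle. Each group holds 8 libraries, 4 wells on each of 2 plates. No source used here states a dose, and no compound was given without LPS. Whether the wells came from separate cultures or mice is unstated, so p-values measure the spread between wells, which may be technical.

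Cells that run short of an amino acid, or that accumulate unfolded protein in the endoplasmic reticulum, activate kinases that phosphorylate the translation initiation factor eIF2 alpha. General translation then falls while the mRNA of ATF4 is translated more, and ATF4 raises the transcription of amino acid transporters, of enzymes that make serine, glycine and asparagine, of regulators such as Ddit3 and Trib3, and of many tRNA synthetases, the enzymes that load each amino acid onto its tRNA. Halofuginone inhibits the prolyl-tRNA synthetase activity of the enzyme encoded by Eprs and so mimics proline shortage. Tunicamycin blocks N-linked glycosylation and with it protein folding in the endoplasmic reticulum, Torin inhibits the kinase mTOR, and tBHQ is an electrophile that activates the antioxidant factor NRF2.

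Library totals ranged from 80196 to 379198 counts over the 96 libraries, and Halofuginone libraries were the shallowest, with 80196 to 136526 counts. The ribosomal RNA precursor Rn45s took 39.0 to 49.1% of the counts in Halofuginone libraries, against 9.43 to 23.7% in DMSO libraries. The macrophage markers Csf1r, Emr1, Cd68, Lyz2, Itgam and Fcgr1 had counts in 96 of 96 libraries, with 1743 or more counts each. Among the markers listed for other cell types, the neutrophil gene S100a8 had most, with 78 counts in 40 libraries, followed by the fibroblast gene Col1a2 with 33 in 14 libraries and the T cell gene Cd3d with 31 in 26 libraries, while Cd3e, Mpo and Cpa3 had none. Library Tunicamycin plate 2 F stood apart: its profile had r = -0.0456 across genes with the Tunicamycin wells of the other plate, where the next lowest library, Tunicamycin plate 1 H, had r = 0.218. All levels below are CPM, the count as a share of the library total after TMM scaling. Fold changes are log2 ± SE from edgeR's quasi-likelihood fit of all 96 libraries (n = 8 per group), and a gene counts as called where the Benjamini-Hochberg adjusted p over the 4963 genes tested is below 0.05. In such bulk lysates, fewer cells of a kind and less RNA per cell cannot be told apart.

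ATF4 binds with a C/EBP partner to a composite element that often reads TGATGNAA, so the promoters of the listed genes were searched for these letters on both strands, in windows from 250 bases before to 50 after each start in RefSeq (GRCm38.p6). Windows were found for 31 of the 40 genes, and 11 of these genes (35.5%) held at least 1 match, against 1304 of all 32851 windows (3.97%) and 1219 of all 27025 genes with a window (4.51%). The matches stood in 5 of 11 synthetases and 6 of the 20 other genes. No window was matched for Slc7a5, Slc1a5, Cars, Hars, Lars, Nars, Rars, Vars and Wars. The stretches below are shown because they carry the element in some of the genes whose levels are described next. Each is 28 bases long, 5′ to 3′ on the strand on which the element reads TGATGNAA, with the match in capitals and 10 bases on each side.
Asns (chr6:7693215-7693242, minus strand, 23 bases before the start): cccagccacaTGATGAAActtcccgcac
Chac1 (chr2:119351039-119351066, minus strand, 193 bases before): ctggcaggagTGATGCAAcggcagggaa
Trib3 (chr2:152344029-152344056, plus strand, base 15 of the transcript): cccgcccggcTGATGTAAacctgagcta
Nupr1 (chr7:126625563-126625590, plus strand, 110 bases before): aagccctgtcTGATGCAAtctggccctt
Slc1a4 (chr11:20332700-20332727, plus strand, 4 bases before): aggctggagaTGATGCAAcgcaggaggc
Gars (chr6:55037961-55037988, minus strand, 30 bases before): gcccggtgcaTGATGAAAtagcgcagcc
Tars (chr15:11399656-11399683, plus strand, 15 bases before): gctaaccagcTGATGCAAcgggactcct
Iars (chr13:49682127-49682154, minus strand, base 8 of the transcript): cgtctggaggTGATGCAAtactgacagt
Yars (chr4:129189896-129189923, plus strand, base 4 of the transcript): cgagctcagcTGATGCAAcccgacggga
The other matches are not shown. Distances run to the first base of the match in the direction of the gene. A match is a string of letters and not a measured binding site, and a window without it, such as those of Slc38a2, Mars and Eprs, shows only that these letters are not in that window.

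BrefA wells had the most listed genes called among the 10 compounds. All 3 tested amino acid transporters, the asparagine synthetase gene Asns, the one-carbon enzyme gene Mthfd2, the factor gene Cebpg and 9 of 15 tested tRNA synthetases were called higher. No listed gene was called lower. In all, 15 of the 24 tested genes (62.5%) were called, all higher, where 17.3% of all tested genes were called (8.08% higher and 9.25% lower). Their median log2 fold change was 1.04, against 0.01 over all tested genes. Without BrefA libraries, Asns, Slc7a1, Hars and Lars did not pass the filter on low counts, so that their test cannot be separated from their level there. Among the other 20 genes 13 were called higher. Asns also did not pass without Tunicamycin libraries, nor Hars without pGE2 libraries.

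**Figure D1:**
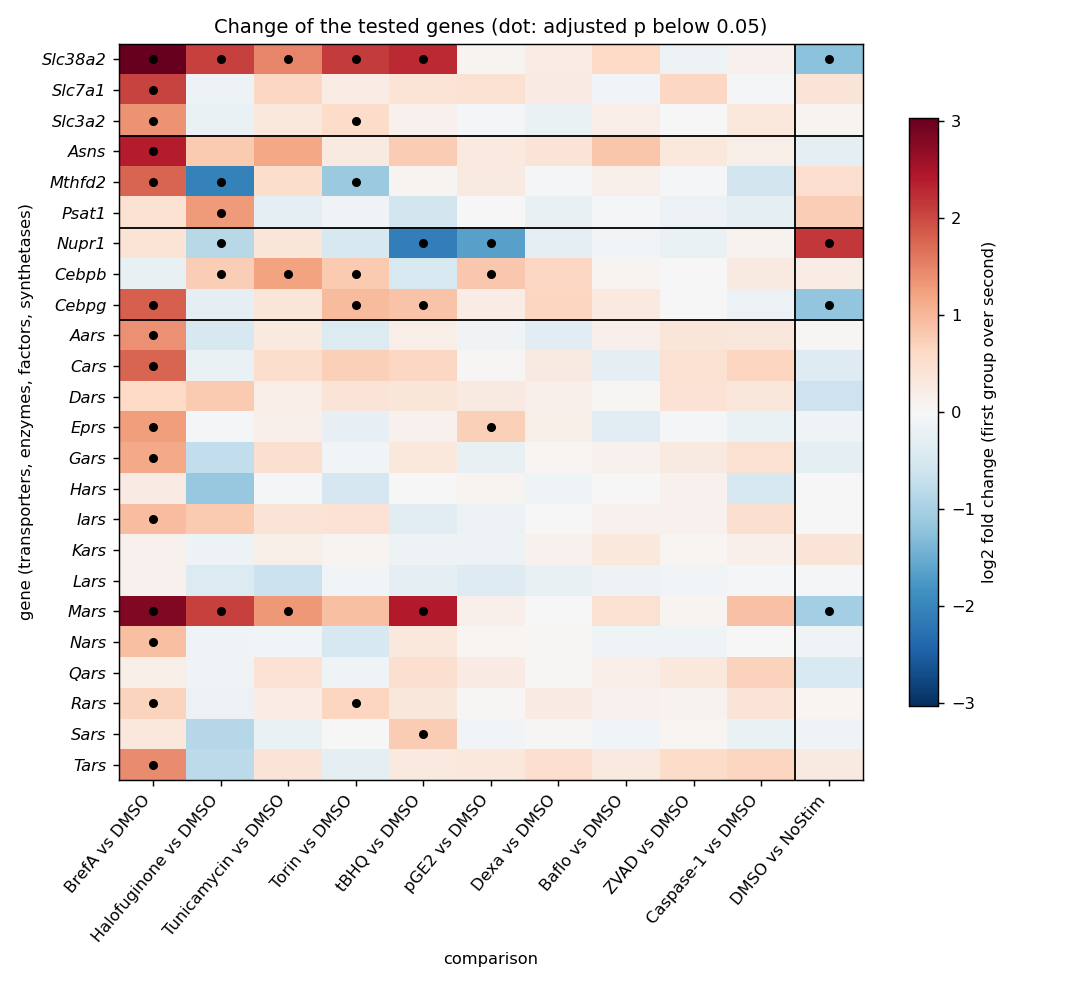
Log2 fold change of the 24 tested genes (rows, grouped as transporters, enzymes, factors and synthetases) in 11 comparisons (columns), each as the first-named group over the second, with a dot where the adjusted p is below 0.05. The BrefA column holds 15 dots, all on positive values, and the Baflo, ZVAD, Dexa and Caspase-1 columns hold none.

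The transporter gene Slc38a2, which encodes a sodium-coupled importer of small neutral amino acids (ENSMUSG00000022462.7, chromosome 15, 96687392 to 96699730, minus strand, in GENCODE M21 on mm10), had between 163 and 458 CPM (median 274) in BrefA libraries, against between 17.5 and 58.0 CPM (median 34.5) in DMSO libraries. Every BrefA library lay above every DMSO library, and the log2 fold change was 3.04 ± 0.21 (edgeR adjusted p = 2.45e-27). Slc7a1, the cationic amino acid transporter for arginine and lysine, had between 52.8 and 107 CPM (median 77.0) in BrefA libraries and between 5.33 and 33.5 CPM (median 18.3) in DMSO libraries. Its groups did not overlap either (log2 fold change 2.06 ± 0.29, edgeR adjusted p = 1.96e-09), with 3.08 on plate 1 and 1.24 on plate 2. Slc3a2, the heavy chain that carries several amino acid exchangers to the cell surface, had between 195 and 412 CPM (median 286) in BrefA libraries, against between 82.4 and 146 CPM (median 119) in DMSO libraries. The groups did not overlap, and the log2 fold change of Slc3a2 was 1.36 ± 0.17 (edgeR adjusted p = 2.56e-11).

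Among the enzymes, Asns, which makes asparagine from aspartate and glutamine (ENSMUSG00000029752.12, chromosome 6, 7675169 to 7693254, minus strand), had between 27.5 and 81.0 CPM (median 54.4) in BrefA libraries, against between 0 and 26.0 CPM (median 9.91) in DMSO libraries. The 8 BrefA libraries all lay above the 8 DMSO libraries, with a log2 fold change of 2.39 ± 0.37 (edgeR adjusted p = 4.28e-08). Mthfd2, a mitochondrial enzyme that passes on one-carbon units from serine, had between 59.9 and 138 CPM (median 118) in BrefA libraries and between 8.67 and 47.9 CPM (median 32.7) in DMSO libraries, again with no overlap (log2 fold change 1.77 ± 0.25, edgeR adjusted p = 1.79e-09). Psat1, the aminotransferase of serine synthesis, had between 14.5 and 49.7 CPM (median 40.03) in BrefA libraries, against between 10.5 and 52.0 CPM (median 20.4) in DMSO libraries, and was not called (log2 fold change 0.47 ± 0.35, edgeR adjusted p = 0.43). Of the C/EBP factor genes, Cebpg, whose protein can pair with ATF4, had between 91.6 and 188 CPM (median 145) in BrefA libraries, against between 8.38 and 65.8 CPM (median 38.1) in DMSO libraries. These groups did not overlap (log2 fold change 1.81 ± 0.22, edgeR adjusted p = 9.97e-12). Cebpb, a C/EBP factor of the inflammatory response, was not called, with medians of 102 CPM in BrefA libraries and 126 CPM in DMSO libraries (log2 fold change -0.22 ± 0.22, edgeR adjusted p = 0.583).

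**Figure D2:**
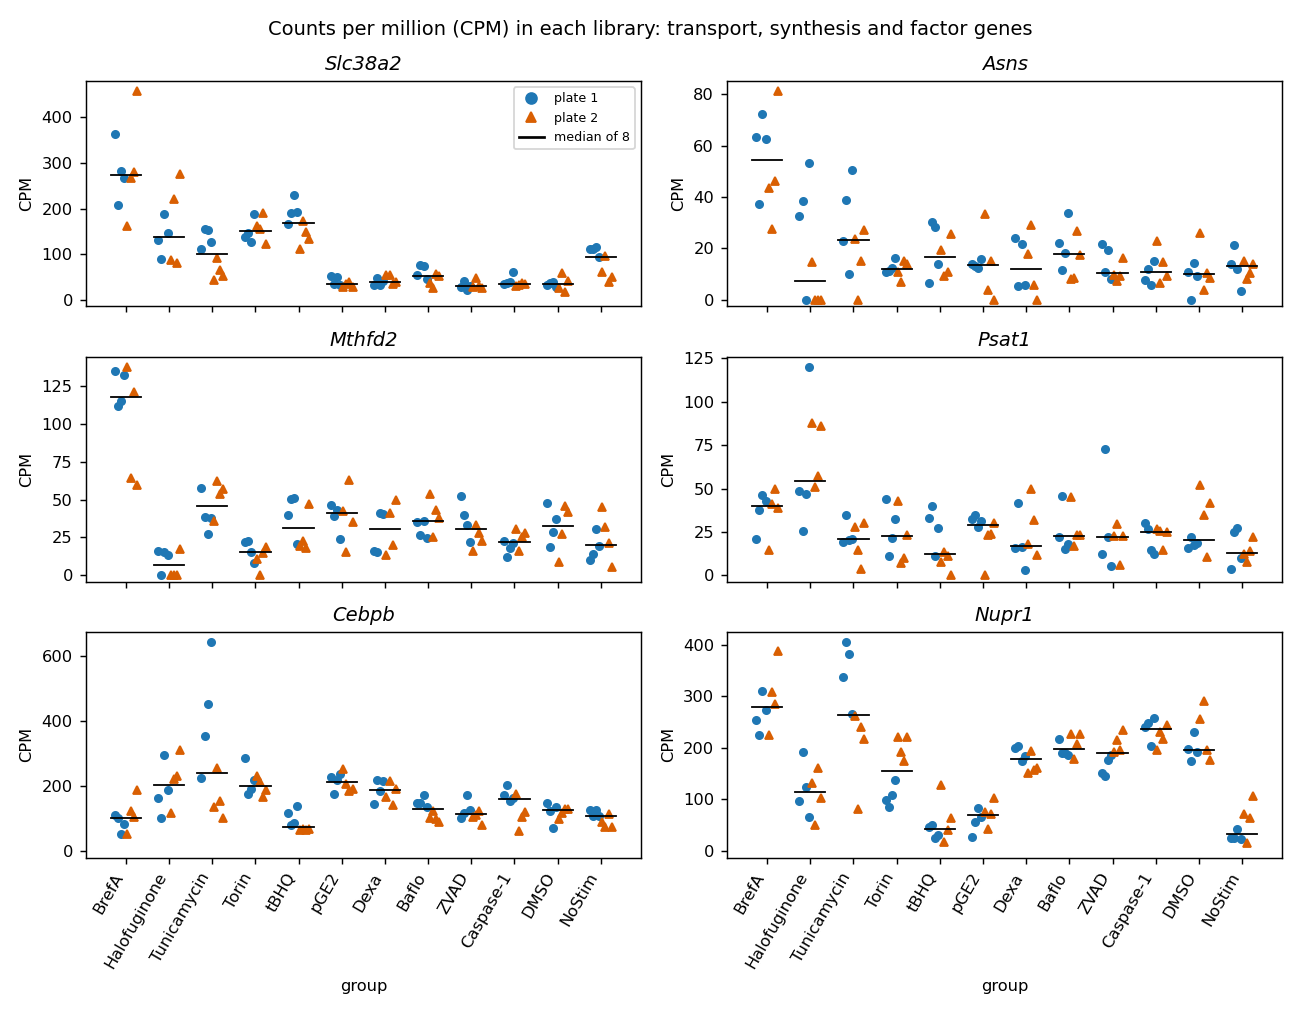
CPM (vertical axis) of 6 genes in each of the 96 libraries by group (horizontal axis), with circles for plate 1, triangles for plate 2 and a line at the median of 8. For Slc38a2, Asns and Mthfd2 the BrefA libraries lie above all DMSO libraries, while Psat1 has its highest median, 54.3 CPM, in Halofuginone libraries.

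The tRNA synthetases called higher in BrefA wells were Mars, Cars, Tars, Aars, Eprs, Gars, Iars, Nars and Rars, which load methionine, cysteine, threonine, alanine, glutamate with proline, glycine, isoleucine, asparagine and arginine. Mars (ENSMUSG00000040354.14, chromosome 10, 127296221 to 127311786, minus strand) had between 52.8 and 130.3 CPM (median 79.5) in BrefA libraries, against between 3.10 and 21.2 CPM (median 10.6) in DMSO libraries. The groups did not overlap, and the log2 fold change was 2.82 ± 0.33 (edgeR adjusted p = 2.31e-12). Eprs, which encodes the bifunctional enzyme for glutamate and proline (ENSMUSG00000026615.14, chromosome 1, 185363044 to 185428360, plus strand), had between 321 and 445 CPM (median 379) in BrefA libraries, against between 133 and 183 CPM (median 154) in DMSO libraries. Every BrefA library was higher, with a log2 fold change of 1.27 ± 0.15 (edgeR adjusted p = 4.88e-13). Cars had between 42.7 and 101 CPM (median 57.4) in BrefA libraries and between 11.1 and 29.3 CPM (median 19.4) in DMSO libraries, without overlap (log2 fold change 1.77 ± 0.28, edgeR adjusted p = 1.42e-07). Tars had between 46.5 and 79.2 CPM (median 61.3) in BrefA libraries, against between 7.74 and 40.3 CPM (median 23.2) in DMSO libraries, and its groups did not overlap (log2 fold change 1.44 ± 0.30, edgeR adjusted p = 6.04e-05). The levels of Aars were between 64.0 and 128 CPM (median 109.8) in BrefA libraries and between 13.0 and 65.8 CPM (median 38.1) in DMSO libraries, where the lowest BrefA library fell just below the highest DMSO library.

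Aars rose by a log2 fold change of 1.40 ± 0.26 (edgeR adjusted p = 4.12e-06). Smaller changes were found in Gars (1.15), Iars (0.94), Nars (0.93) and Rars (0.67), whose BrefA and DMSO libraries overlapped, with edgeR adjusted p of 0.00195, 0.0109, 3.55e-06 and 0.0141 in that order. Iars was no longer past the threshold without the wells lettered F or H, and Rars without those lettered E or H. Of the 6 synthetases that were not called, Dars had a log2 fold change of 0.60 ± 0.28 (edgeR adjusted p = 0.143) and the other 5, Sars, Hars, Qars, Lars and Kars, had values of 0.33, 0.25, 0.17, 0.13 and 0.12. The summed level of the 18 synthetases was 1285 to 1622 CPM in BrefA libraries and 685 to 803 CPM in DMSO libraries. The other 22 genes summed to 1147 to 1878 CPM in BrefA libraries and 545 to 769.7 CPM in DMSO libraries. The element stood in the window of 5 of the 12 genes called higher in BrefA wells that had a window (among them Asns, Gars, Iars and Tars), and of 1 of 7 tested genes with a window that were not called (Nupr1). It also stood in 5 of the 12 listed genes with a window that had too few counts for the test. A link between element and calls was not tested.

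**Figure D3:**
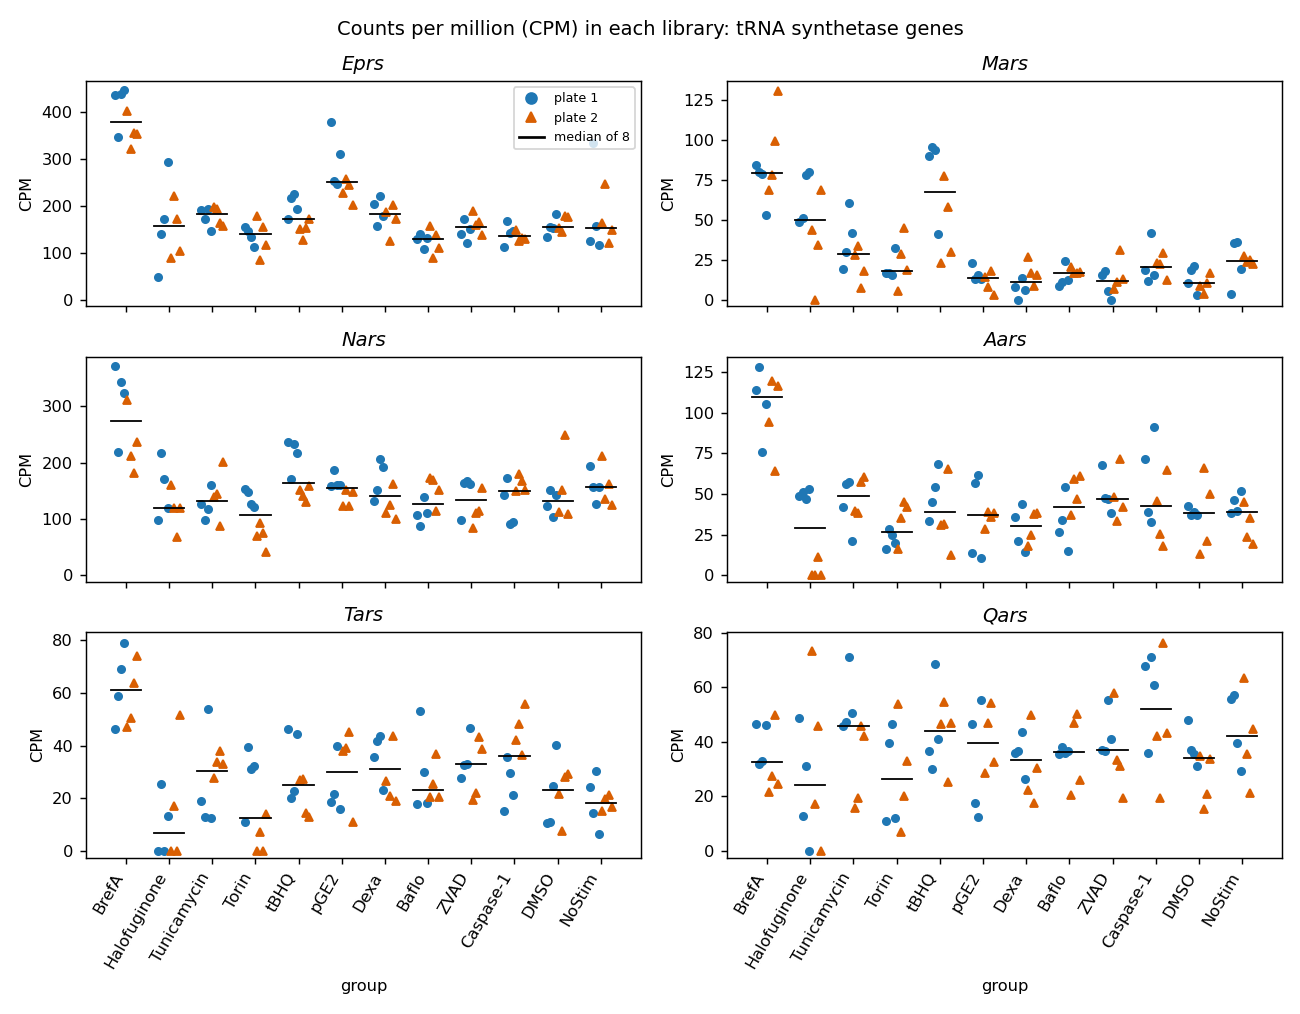
CPM (vertical axis) of 6 tRNA synthetase genes in each of the 96 libraries by group (horizontal axis), with circles for plate 1, triangles for plate 2 and a line at the median of 8. Eprs lies between 321.3 and 445.4 CPM in BrefA libraries, above all DMSO libraries, and Qars shows overlapping groups.

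Halofuginone wells showed a narrower and mixed pattern. Mars, Slc38a2, Psat1 and Cebpb were higher than in DMSO wells, Mthfd2 and Nupr1 were lower, and Eprs, the gene of the enzyme that halofuginone inhibits, was not called. The 6 called genes of 24 (25.0%) compare with 40.3% of all tested genes called (15.3% higher and 25.0% lower), and the median log2 fold change was -0.17, against -0.20 over all genes. Of the 15 tested synthetases, Mars alone was called, and 3 had a value above 0.

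Slc38a2 had between 80.4 and 275 CPM (median 138) in Halofuginone libraries, against between 17.5 and 58.0 CPM (median 34.5) in DMSO libraries. The groups did not overlap (log2 fold change 2.07 ± 0.27, edgeR adjusted p = 7.40e-11), and the value was 2.02 on plate 1 and 2.14 on plate 2. Mars had between 0 and 80.0 CPM (median 50.0) in Halofuginone libraries and between 3.10 and 21.2 CPM (median 10.6) in DMSO libraries. It was at 0 in 1 Halofuginone library, so the groups overlapped, and the log2 fold change was 2.09 ± 0.47 (edgeR adjusted p = 1.22e-04). Psat1 had between 25.6 and 119.9 CPM (median 54.3) in Halofuginone libraries, against between 10.5 and 52.0 CPM (median 20.4) in DMSO libraries. Its log2 fold change was 1.30 ± 0.42 (edgeR adjusted p = 0.0085), but with the Rn45s share of each library in the fit it was -0.75 (edgeR adjusted p = 0.425). That share was at least 39.0% in Halofuginone libraries and at most 30.9% in those of all other groups. Such a fit therefore cannot separate the share from the compound, and the direction of Psat1 depends on the term. Without the wells lettered H its call was lost too. Cebpb had between 102 and 309.6 CPM (median 204) in Halofuginone libraries, against between 70.8 and 149 CPM (median 126) in DMSO libraries, with overlapping groups and a log2 fold change of 0.75 ± 0.25 (edgeR adjusted p = 0.00987), a call lost without the wells lettered G.

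Mthfd2 went the other way, with between 0 and 17.2 CPM (median 6.66) and a count of 0 in 4 of 8 Halofuginone libraries, against between 8.67 and 47.9 CPM (median 32.7) in DMSO libraries. The groups shared part of their range, and the log2 fold change was -2.06 ± 0.61 (edgeR adjusted p = 0.00418) from 4 counts in Halofuginone wells and 66 in DMSO wells. With the Rn45s share in the fit, Mthfd2 and Cebpb were no longer past the threshold (edgeR adjusted p = 0.0734 and 0.179), whereas Slc38a2, Mars and Nupr1 remained so. Nupr1, which encodes a small stress-induced chromatin protein, had between 51.1 and 192 CPM (median 114) in Halofuginone libraries and between 174 and 290.1 CPM (median 197) in DMSO libraries, with overlapping groups and a log2 fold change of -0.84 ± 0.26 (edgeR adjusted p = 0.00695). Eprs had between 48.8 and 293 CPM (median 156) in Halofuginone libraries, against between 133 and 183 CPM (median 154) in DMSO libraries, a log2 fold change of -0.03 ± 0.19 (edgeR adjusted p = 0.923). Asns had between 0 and 53.3 CPM (median 7.32), with 4 of 8 Halofuginone libraries at 0, against between 0 and 26.0 CPM (median 9.91) in DMSO libraries. At 10 counts in Halofuginone wells and 21 in DMSO wells, its log2 fold change of 0.80 ± 0.63 (edgeR adjusted p = 0.324) was not past the threshold.

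**Figure D4:**
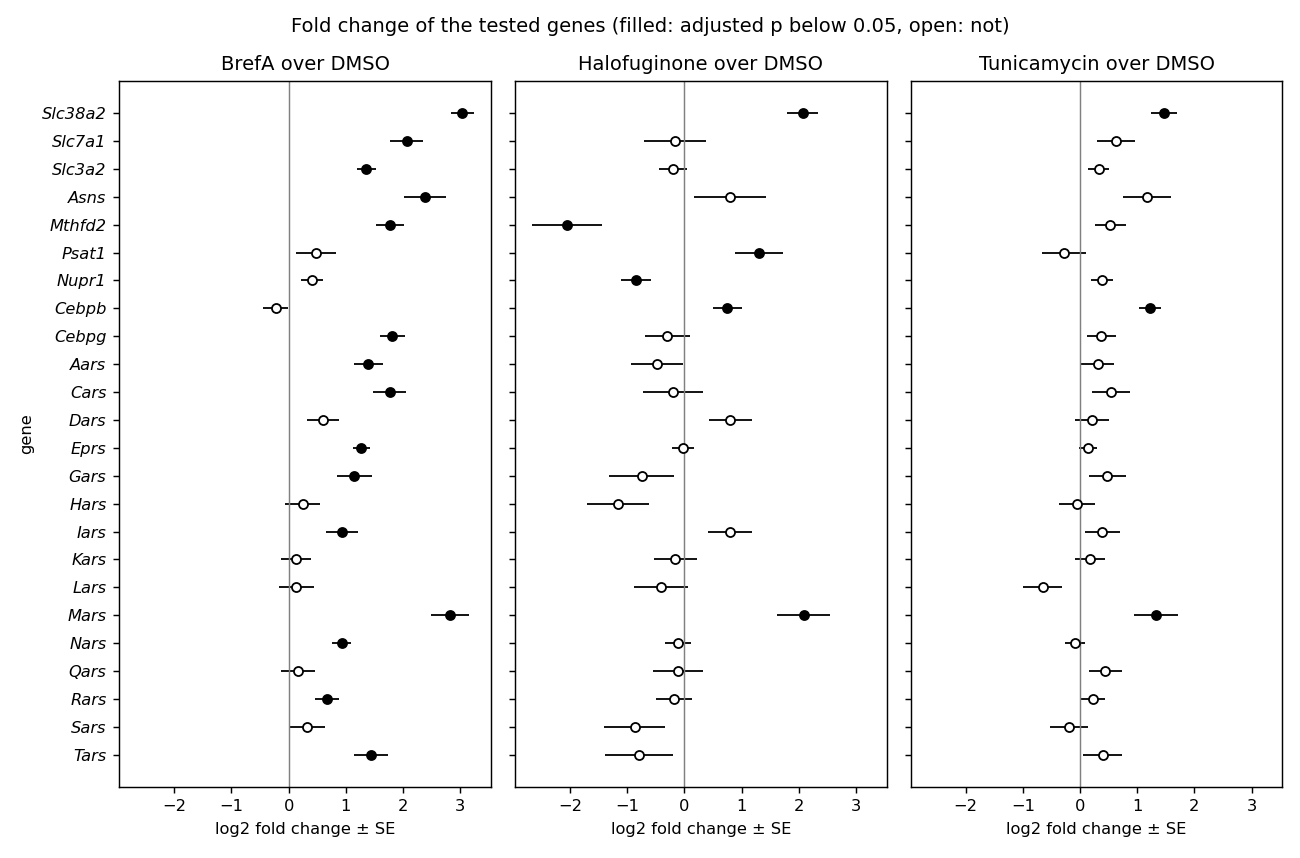
Log2 fold change ± SE of the 24 tested genes (rows) in BrefA, Halofuginone and Tunicamycin wells over DMSO wells (panels, n = 8 libraries per group), filled where the adjusted p is below 0.05. Error bars are longest in the Halofuginone panel, where Mthfd2 stands at -2.06 and Mars at 2.09.

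In Tunicamycin wells only Slc38a2, Cebpb and Mars were called among the 24 genes, all higher. These 3 genes (12.5%) compare with 4.37% of all tested genes called (2.80% higher and 1.57% lower), and the median log2 fold change was 0.38, against 0.00 over all genes. Slc38a2 had between 43.6 and 155 CPM (median 101) in Tunicamycin libraries, against between 17.5 and 58.0 CPM (median 34.5) in DMSO libraries, with a log2 fold change of 1.47 ± 0.23 (edgeR adjusted p = 1.45e-06). Cebpb had between 102 and 644 CPM (median 240.3) in Tunicamycin libraries and between 70.8 and 149 CPM (median 126) in DMSO libraries, with the widest spread of the 12 groups (log2 fold change 1.23 ± 0.20, edgeR adjusted p = 6.49e-06). Both changes were larger on plate 1 (1.98 for Slc38a2 and 1.81 for Cebpb) than on plate 2 (0.77 and 0.40), and for all 3 genes some Tunicamycin libraries lay within the DMSO range. Mars had between 7.63 and 60.8 CPM (median 28.9) in Tunicamycin libraries, against between 3.10 and 21.2 CPM (median 10.6) in DMSO libraries (log2 fold change 1.33 ± 0.39, edgeR adjusted p = 0.0294), and was no longer past the threshold when any well letter was left out. Asns had between 0 and 50.5 CPM (median 23.4) in Tunicamycin libraries, against between 0 and 26.0 CPM (median 9.91) in DMSO libraries, and was not called (log2 fold change 1.17 ± 0.42, edgeR adjusted p = 0.0939). Without Tunicamycin libraries Asns did not pass the filter on low counts. The libraries of plate 1 alone gave 5 called genes (7.48% of all tested genes called) and those of plate 2 alone gave 0 (0.10%, edgeR). Without Tunicamycin plate 2 F there were 4 (4.69%).

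Set directly against each other, Tunicamycin wells had lower levels than BrefA wells in 12 of the 24 genes and a higher level in 1, where 16.9% of all tested genes were called (9.93% higher and 6.99% lower in Tunicamycin wells). The largest differences were in Slc38a2 (log2 fold change -1.57 ± 0.18), Mars (-1.49 ± 0.28), Cebpg (-1.44 ± 0.21) and Slc7a1 (-1.43 ± 0.27), with edgeR adjusted p of 3.48e-13, 1.09e-05, 1.60e-08 and 8.73e-06. Eprs had between 147 and 198 CPM (median 182) in Tunicamycin libraries, against between 321 and 445 CPM (median 379) in BrefA libraries, without overlap (log2 fold change -1.13 ± 0.14, edgeR adjusted p = 8.68e-11). The other 7 genes lower in Tunicamycin wells were Mthfd2, Cars, Asns, Aars, Tars, Slc3a2 and Nars, with values between -1.24 and -1.01. Asns and Slc7a1 did not pass the filter without BrefA libraries, and Asns did not without Tunicamycin libraries either. The call of Asns was lost without the wells lettered G, and that of Tars without those lettered H. Cebpb was the gene higher in Tunicamycin wells (log2 fold change 1.45 ± 0.20, edgeR adjusted p = 5.50e-09), with 2.29 on plate 1 and 0.44 on plate 2.

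BrefA wells had higher levels than Halofuginone wells in 15 of the 24 genes and a lower level in 1, Cebpb, in a comparison chosen after the values were seen. Over all tested genes 40.2% were called (24.0% higher and 16.2% lower in BrefA wells). Among the 20 listed genes that passed the filter without BrefA libraries too, 12 were higher and 1 lower. Mthfd2 differed most, with between 59.9 and 138 CPM (median 118) in BrefA libraries, against between 0 and 17.2 CPM (median 6.66) in Halofuginone libraries (log2 fold change 3.83 ± 0.49, edgeR adjusted p = 4.28e-11). Tars (2.23 ± 0.50), Slc7a1 (2.23 ± 0.43), Cebpg (2.11 ± 0.33), Cars (1.97 ± 0.43) and Gars (1.90 ± 0.50) followed, with edgeR adjusted p of 1.25e-04, 9.70e-06, 3.57e-08, 7.96e-05 and 0.00107. Eprs had a log2 fold change of 1.30 ± 0.18 (edgeR adjusted p = 8.32e-10), and Cebpb of -0.98 ± 0.25 (edgeR adjusted p = 9.65e-04). Without the wells lettered G the call of Cebpb was lost. With the Rn45s share in the fit 10 genes remained past the threshold, all higher in BrefA wells, where 15.1% of all tested genes were called.

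Halofuginone was also set against Tunicamycin and Torin. Against Tunicamycin wells, Psat1 (log2 fold change 1.58 ± 0.43) and Slc38a2 (0.60 ± 0.23) were higher and Mthfd2 (-2.59 ± 0.57) and Nupr1 (-1.22 ± 0.26) lower in Halofuginone wells, with edgeR adjusted p of 0.00149, 0.0303, 8.53e-05 and 4.79e-05. The value of Slc38a2 ran between 0.03 and 1.37 over the settings tried, and its call was lost without the wells lettered E or H and on plate 1 alone. These 4 genes of 24 (16.7%) compare with 45.0% of all tested genes (17.7% higher and 27.3% lower). Against Torin wells, Psat1 (1.40 ± 0.44) and Mars (1.18 ± 0.43) were higher and Cebpg (-1.25 ± 0.36), Rars (-0.84 ± 0.31) and Slc3a2 (-0.75 ± 0.24) lower in Halofuginone wells on the log2 scale, with edgeR adjusted p of 0.00697, 0.0245, 0.00362, 0.0231 and 0.00878. Here 5 of 24 (20.8%) compare with 36.7% of all tested genes (13.5% higher and 23.2% lower). In both comparisons Psat1 was on the other side of 0 with the Rn45s share in the fit (-0.64 against Tunicamycin and -0.45 against Torin), and Slc3a2 against Torin was then 0.17. Against Torin, the calls of Rars and Slc3a2 were lost with same-named wells summed (edgeR adjusted p = 0.0782 and 0.0504). Leaving out the wells lettered F or H left 2 called genes, where 30.1% and 30.0% of all tested genes were called. Every gene called against Torin lost its call without at least 1 letter.

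In Torin wells, Slc38a2, Cebpg, Cebpb, Rars and Slc3a2 were higher and Mthfd2 lower. These 6 genes of 24 (25.0%) compare with 16.7% of all tested genes (9.61% higher and 7.11% lower). Slc38a2 had between 122 and 189.8 CPM (median 152) in Torin libraries, against between 17.5 and 58.0 CPM (median 34.5) in DMSO libraries, without overlap and with a log2 fold change of 2.13 ± 0.22 (edgeR adjusted p = 1.06e-14). Cebpg had between 48.5 and 114 CPM (median 81.5) in Torin libraries, against between 8.38 and 65.8 CPM (median 38.1) in DMSO libraries, and the groups overlapped (log2 fold change 0.95 ± 0.25, edgeR adjusted p = 0.00231). Cebpb, at 0.79, Rars, at 0.66, and Slc3a2, at 0.55, had edgeR adjusted p of 0.00279, 0.0234 and 0.0232. Mthfd2 had between 0 and 22.7 CPM (median 15.2) in Torin libraries, against between 8.67 and 47.9 CPM (median 32.7) in DMSO libraries (log2 fold change -1.12 ± 0.36, edgeR adjusted p = 0.0193). Without the wells lettered G, 2 genes were called, Slc38a2 and Cebpb.

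In tBHQ wells, Mars, Slc38a2, Cebpg and Sars were higher and Nupr1 lower, 5 of 24 genes (20.8%), where 36.4% of all tested genes were called (17.3% higher and 19.1% lower). Mars had between 23.3 and 95.5 CPM (median 67.7) in tBHQ libraries, against between 3.10 and 21.2 CPM (median 10.6) in DMSO libraries. All 8 tBHQ libraries lay above the DMSO libraries (log2 fold change 2.41 ± 0.35, edgeR adjusted p = 1.81e-09). Slc38a2 had between 112 and 231 CPM (median 169) in tBHQ libraries and between 17.5 and 58.0 CPM (median 34.5) in DMSO libraries, also without overlap (log2 fold change 2.26 ± 0.22, edgeR adjusted p = 1.28e-17). Nupr1 had between 18.2 and 128 CPM (median 43.2) in tBHQ libraries, against between 174 and 290.1 CPM (median 197) in DMSO libraries, with every tBHQ library lower (log2 fold change -2.09 ± 0.23, edgeR adjusted p = 3.09e-13). Cebpg had a log2 fold change of 0.86 ± 0.24 (edgeR adjusted p = 0.0023) and Sars, the serine enzyme, of 0.77 ± 0.29 (edgeR adjusted p = 0.0305). Without the wells lettered G, Cebpg and Sars lost their calls, Sars also without those lettered E.

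In pGE2 wells, Cebpb and Eprs were higher and Nupr1 lower, 3 of 24 genes (12.5%), where 11.2% of all tested genes were called (5.20% higher and 5.98% lower). Eprs had between 202 and 377 CPM (median 249.7) in pGE2 libraries, against between 133 and 183 CPM (median 154) in DMSO libraries, without overlap and with a log2 fold change of 0.72 ± 0.15 (edgeR adjusted p = 8.90e-05). Cebpb had between 175 and 251 CPM (median 213) in pGE2 libraries and between 70.8 and 149 CPM (median 126) in DMSO libraries (log2 fold change 0.83 ± 0.20, edgeR adjusted p = 0.00131). The groups did not overlap there either. Nupr1 had between 28.0 and 104 CPM (median 68.9) in pGE2 libraries, against between 174 and 290.1 CPM (median 197) in DMSO libraries, and every pGE2 library was lower (log2 fold change -1.65 ± 0.22, edgeR adjusted p = 1.20e-09).

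None of the 24 genes was called in Dexa, Baflo, ZVAD or Caspase-1 wells with edgeR or with DESeq2. At an unadjusted p below 0.05, edgeR gave 2 genes in Dexa wells, 2 in Baflo wells, 0 in ZVAD wells and 4 in Caspase-1 wells. The shares of all tested genes below that p were 12.5%, 7.52%, 3.55% and 18.9% in that order. Over all tested genes, 3.57% were called for Dexa (1.95% higher and 1.61% lower), 2.90% for Caspase-1 (1.39% higher and 1.51% lower), and 0% for Baflo and ZVAD, for which 373 and 176 genes had an unadjusted p below 0.05 and DESeq2 also gave 0. The value nearest the threshold was Cebpb in Dexa wells, with between 142 and 219 CPM (median 188), against between 70.8 and 149 CPM (median 126) in DMSO libraries (log2 fold change 0.63 ± 0.20, edgeR adjusted p = 0.0677). It was named after its value was seen.

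DMSO wells, which received LPS, were compared with NoStim wells. These also stood under other well letters and have no stated vehicle or pretreatment, so the part of LPS alone cannot be told apart. Nupr1 was higher and Slc38a2, Cebpg and Mars lower, 4 of 24 genes (16.7%), where 36.1% of all tested genes were called (19.5% higher and 16.6% lower). Nupr1 had between 174 and 290.1 CPM (median 197) in DMSO libraries, against between 15.8 and 106 CPM (median 33.8) in NoStim libraries. The groups did not overlap (log2 fold change 2.15 ± 0.23, edgeR adjusted p = 3.20e-14). Slc38a2 had between 17.5 and 58.0 CPM (median 34.5) in DMSO libraries, against between 38.8 and 115 CPM (median 94.8) in NoStim libraries, with overlapping groups and a log2 fold change of -1.25 ± 0.23 (edgeR adjusted p = 2.33e-06). Cebpg had between 8.38 and 65.8 CPM (median 38.1) in DMSO libraries and between 75.2 and 115 CPM (median 94.0) in NoStim libraries, without overlap (log2 fold change -1.20 ± 0.23, edgeR adjusted p = 5.23e-06). Mars had between 3.10 and 21.2 CPM (median 10.6) in DMSO libraries, against between 3.47 and 36.4 CPM (median 24.2) in NoStim libraries (log2 fold change -1.04 ± 0.40, edgeR adjusted p = 0.0297). The call of Mars was lost without the wells lettered F, G or H, left out together with NoStim wells lettered B, C or D in that order. Eprs, Nars and Slc3a2, with high levels in both groups, were not called, with log2 fold changes of -0.13, -0.14 and 0.07.

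Over the 10 compounds, each set against the same DMSO libraries, Slc38a2 was called higher for 5, Mars and Cebpb for 4, and Cebpg for 3. The median of Slc38a2 was 274 CPM in BrefA, 169 in tBHQ, 152 in Torin, 138 in Halofuginone and 101 in Tunicamycin libraries. It lay between 29.5 CPM (ZVAD) and 52.8 CPM (Baflo) in the other 5 compounds, with 34.5 in DMSO and 94.8 in NoStim libraries. Each of the first 5 groups overlapped the next in this order. For Mars the medians were 79.5 CPM in BrefA, 67.7 in tBHQ, 50.0 in Halofuginone, 28.9 in Tunicamycin and 24.2 in NoStim libraries, and each of these neighbours overlapped. Nupr1 was called lower for 3 compounds and higher for none. Hars, Kars, Lars, Dars and Qars were called for none of the 10 compounds.

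Of the listed genes 16 had too few counts for the test, and Stc2 had no count at all. Several of them had more counts in BrefA wells than in DMSO wells. Chac1, which degrades glutathione, had 51 counts over the 8 BrefA libraries and 1 over the 8 DMSO libraries. Scaled for depth, the ratio was 50.6 (95% counting interval 8.69 to 2039). Trib3, a pseudokinase that feeds back on ATF4, had 48 counts in BrefA wells and 3 in DMSO wells, a ratio of 15.9 (95% counting interval 5.12 to 79.8). Phgdh and Psph, the first and last enzymes of serine synthesis, had 33 and 31 counts in BrefA wells and 1 and 3 in DMSO wells. Their ratios were 32.8 (5.49 to 1333) for Phgdh and 10.3 (3.20 to 52.5) for Psph. Each of these 4 genes had a count in 8 of 8 BrefA libraries.

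Sesn2, an inhibitor of mTOR signalling upon amino acid shortage, had 44 counts in BrefA wells, against 5 in DMSO wells, and Yars, the tyrosine enzyme, had 57 in BrefA wells, against 19 in DMSO wells. Aldh18a1 of proline synthesis and the neutral amino acid transporter Slc1a4 had 8 counts each in BrefA wells, against 0 in DMSO wells, at least 2.65-fold higher against a floor of 3 counts over the group, where the lower 95% counting limit of the ratio was 1.695. With every counted gene in the fit, these 8 genes were called higher in BrefA wells, with edgeR adjusted p between 1.15e-08 and 0.0233, where 4.96% of the 16022 genes in that fit were called. Wars, the tryptophan enzyme, had 38 counts in BrefA wells and 41 in DMSO wells, and Vars, Shmt2, Slc7a5, Slc1a5 and Slc6a9 were not called, while Vldlr had no count in either group. In Halofuginone wells the same fit called 2 genes higher, Chac1 with 5 counts against 1 in DMSO wells and Sesn2 with 9 against 5 in DMSO wells, where 14.6% of all genes in that fit were called. Slc1a5, a glutamine transporter, had 9 counts in DMSO wells and 38 in NoStim wells, and was the only one of these genes called for DMSO against NoStim (edgeR adjusted p = 0.0183), where 11.9% of all genes in that fit were called. The intervals cover counting error only.

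**Figure D5:**
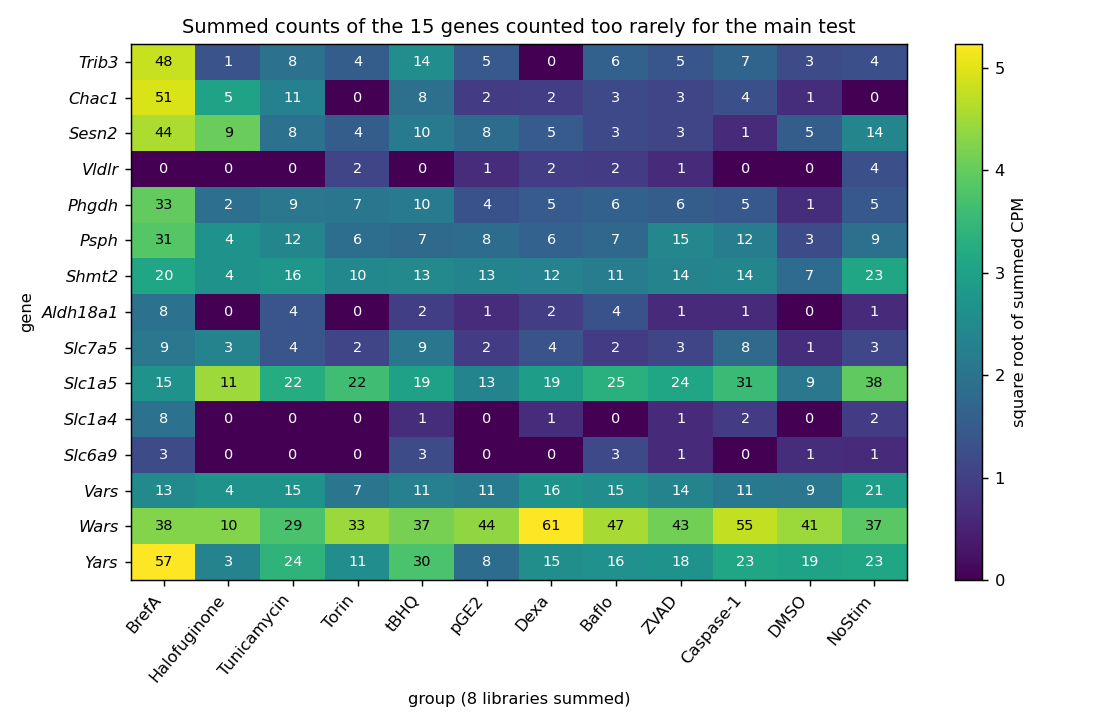
Summed counts over 8 libraries (numbers) of the 15 listed genes that had counts but too few for the test, by group, with colour for the square root of the summed CPM. BrefA holds the highest count of Trib3, Chac1, Sesn2, Phgdh, Psph and Yars.

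The regulators upstream of these genes were read beside them from a list of 20 genes, of which 10 could be tested. Genes of this list and of the further lists below are given from the main fit. Their calls were not followed over the other settings, such as the Rn45s share or the well letters. In BrefA wells 5 of these were higher and 3 lower (17.3% of all tested genes called), in Halofuginone wells 6 higher and 1 lower (40.3%), and in Tunicamycin wells 3 higher (4.37%). In tBHQ wells 4 were higher and 2 lower (36.4%), and in Torin wells 3 higher (16.7%). Atf4 had between 560.4 and 895 CPM (median 719) in BrefA libraries, between 238 and 503 CPM (median 343) in Tunicamycin libraries and between 117 and 437 CPM (median 223) in Halofuginone libraries, against between 85.2 and 156 CPM (median 126) in DMSO libraries. Its log2 fold changes were 2.58 ± 0.15 (edgeR adjusted p = 4.55e-32) for BrefA, 1.50 ± 0.16 (edgeR adjusted p = 2.07e-13) for Tunicamycin and 0.91 ± 0.19 (edgeR adjusted p = 4.90e-05) for Halofuginone. For tBHQ the Atf4 value was 1.32 ± 0.16 (edgeR adjusted p = 1.51e-12), and for Torin, at 0.31 ± 0.17 (edgeR adjusted p = 0.224), it was not called. Ddit3, which encodes the stress factor CHOP, had between 99.5 and 144 CPM (median 119) in BrefA libraries, between 11.5 and 125 CPM (median 66.2) in Halofuginone libraries and between 22.9 and 64.2 CPM (median 35.5) in Tunicamycin libraries, against between 5.33 and 35.4 CPM (median 9.75) in DMSO libraries. It was called higher for BrefA (3.15), tBHQ (2.64), Halofuginone (2.25) and Tunicamycin (1.54), with edgeR adjusted p of 9.37e-19, 6.67e-14, 8.01e-07 and 0.00111.

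Ppp1r15a, the stress-induced subunit of the eIF2 alpha phosphatase, had its highest median of the 12 groups in Halofuginone wells. It had between 884 and 3213 CPM (median 1309.6) in Halofuginone libraries and between 135 and 274 CPM (median 209.6) in BrefA libraries, against between 63.1 and 178 CPM (median 114) in DMSO libraries. Every Halofuginone library lay above every DMSO library (log2 fold change 3.82 ± 0.30, edgeR adjusted p = 2.08e-19), whereas the BrefA value was 0.89 ± 0.30 (edgeR adjusted p = 0.0287). Set directly, BrefA over Halofuginone wells, the log2 fold change was -2.92 ± 0.28 (edgeR adjusted p = 3.82e-15). Atf3, another stress-induced factor, was higher in Halofuginone wells (1.17) and lower in BrefA wells (-1.04) than in DMSO wells, and the direct difference, BrefA over Halofuginone, was -2.22 ± 0.17 (edgeR adjusted p = 2.08e-23). Eif2s2, the beta subunit of eIF2, had between 1035 and 1299 CPM (median 1211) in BrefA libraries, between 187 and 278 CPM (median 234) in Halofuginone libraries and between 394 and 602 CPM (median 492) in DMSO libraries. These 3 groups did not overlap, with log2 fold changes of 1.23 ± 0.10 (edgeR adjusted p = 2.42e-20) for BrefA and -1.10 ± 0.14 (edgeR adjusted p = 8.54e-12) for Halofuginone. The GCN2 kinase gene Eif2ak4 had too few counts to be tested.

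Of 19 further ATF4 targets, 10 could be tested, and 5 were called higher in BrefA wells and none lower, where 17.3% of all tested genes were called. In pGE2 wells 4 of the 10 were called higher and 0 lower, where 11.2% of all tested genes were called. The tBHQ wells had 2 higher and 3 lower (36.4%). Torin wells had 1 higher and 1 lower (16.7%), Dexa wells 1 higher and 1 lower (3.57%), and Tunicamycin wells 1 higher and 0 lower (4.37%). Herpud1, which acts in degradation of misfolded endoplasmic reticulum protein, had between 192 and 402 CPM (median 284) in BrefA libraries, between 24.1 and 182 CPM (median 101) in Tunicamycin libraries and between 0 and 23.0 CPM (median 6.66) in Halofuginone libraries, against between 11.6 and 33.5 CPM (median 22.0) in DMSO libraries. It was called higher for BrefA (log2 fold change 3.72 ± 0.25, edgeR adjusted p = 3.86e-27) and Tunicamycin (2.15 ± 0.28, edgeR adjusted p = 4.72e-09). Gdf15, a secreted stress hormone, had between 119 and 413 CPM (median 162) in Halofuginone libraries, between 106 and 222 CPM (median 146) in BrefA libraries and between 109.9 and 179.8 CPM (median 153) in Torin libraries, against between 3.10 and 12.6 CPM (median 9.02) in DMSO libraries. All 3 groups lay above DMSO without overlap, with log2 fold changes of 4.67 ± 0.34, 4.20 ± 0.31 and 4.09 ± 0.32 and edgeR adjusted p of 4.61e-25, 2.17e-24 and 1.38e-22 for Halofuginone, BrefA and Torin. The remaining genes called in BrefA wells were Eif4ebp1 (1.88), Ddit4 (1.38) and Jdp2 (0.58). In Halofuginone wells 2 of the 10 were higher, Gdf15 and the tRNA export gene Xpot (0.86), and Pycr1, of proline synthesis, was lower (-2.15), 3 of 10 where 40.3% of all tested genes were called.

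Of 17 mitochondrial tRNA synthetases only Lars2 could be tested. It had between 52905 and 120169 CPM (median 89646) in Halofuginone libraries, against between 8506 and 44595 CPM (median 33989) in DMSO libraries. The groups did not overlap (log2 fold change 1.46 ± 0.29, edgeR adjusted p = 2.66e-05), in the libraries whose Rn45s share was also highest, and the part of Rn45s in this result was not tested. Among DMSO libraries, Rn45s had its lowest share, 9.43%, in plate 1 G, where Lars2 took 0.935% of the counts. Its highest share, 23.7%, was in plate 2 F, where Lars2 took 4.09%. Whether these counts stem from Lars2 mRNA was not tested. Of 6 further cytoplasmic synthetase subunits and scaffold genes, Aimp1, a scaffold of the multi-synthetase complex that also holds the Eprs protein, could be tested. Its log2 fold change was -1.21 ± 0.40 (edgeR adjusted p = 0.0105) in Halofuginone wells and 0.03 in BrefA wells, where it was not called.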

How the data were processed

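Gene counts of 96 libraries were analysed as deposited. Per the labels' protocols, cells were lysed in wells and 3′-end libraries were made by a modified SCRB-Seq method with Nextera fragmentation, and per the submitters' processing notes the reads were aligned with BWA to mm10. The deposited values are raw counts per gene symbol made by the authors. The BWA version, the annotation, any filter and whether PCR copies were merged are not given in those notes, and a 3′-end count follows the last exon, so that isoforms are not separated.

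Counts were fitted with edgeR 4.0.16 (quasi-likelihood, robust, TMM scaling, R 4.3.3, limma 3.58.1) over all 96 libraries with group and plate as terms. The filter filterByExpr on the groups kept 4963 of 23481 genes. Tests were two-sided, with Benjamini-Hochberg adjustment over all 4963 genes and a threshold of 0.05. Library totals of 80196 to 379198 counts limit what can be seen of genes with few counts. Genes under the filter were described by summed counts, with exact binomial 95% intervals that cover counting error only, and with a fit without the filter. Alternatives were DESeq2 1.42.0, RLE scaling, other filters, single plates, wells summed by letter, each well letter left out, 2 groups alone, Rn45s removed or its share as a term, and outlying libraries left out, the last chosen after the data were seen. Letters E to H were each left out together with a NoStim letter, A to D in that order. The code was tested on simulated counts.

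Gene positions come from GENCODE M21 on mm10, in which 40 of 40 genes were matched, and promoter letters from RefSeq on GRCm38.p6. The members and lists were chosen with earlier results of these data known. Named genes were, per comparison, up to 12 called members in each direction by size, up to 6 not called by highest mean level, and Atf4, Atf3, Ddit3 and Ppp1r15a with up to 4 called genes of each further list; where fewer are printed, the rest are given as counts or ranges. Wells with the same letter on the same plate in different groups had a mean correlation of deviations of 0.0472 over 440 pairs, so letters were not taken to pair samples. Between the plates, wells of the same group and letter had a mean of 0.156 over 48 pairs. The main fit still took the 8 libraries of a group as separate. Python 3.11.15 with matplotlib 3.10.9 made the plots. Some items are not reported here.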

Additional observations from a re-analysis of the deposited data

Results flagged for a closer look

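Among 240 sets of 8 libraries (the 20 genes called in any comparison, in each of 12 groups), 13 held a library far from the other 7 by the gap to its nearest neighbour relative to the range. Chance alone gives about 1 set in 20. In tBHQ wells, Nupr1 was 128 CPM in plate 2 E, Sars 10.3 CPM in plate 1 H, Slc7a1 8.55 CPM in plate 2 H and Cars 57.0 CPM in plate 1 G. In pGE2 wells, Cars was 37.0 CPM in plate 1 G and Psat1 0 CPM in plate 2 E. In ZVAD wells, Psat1 was 73.0 CPM in plate 1 F and Cars 48.1 CPM in plate 2 F. Cebpg was 114.7 CPM in Dexa plate 1 F and 93.2 CPM in Baflo plate 1 E. Slc38a2 was 60.8 CPM in Caspase-1 plate 1 H, Nars 249 CPM in DMSO plate 2 G, and Hars 34.5 CPM in Halofuginone plate 2 G, from 3 counts. Some of these libraries enter called differences. Without the wells lettered E, Nupr1 in tBHQ over DMSO wells stood at -2.47 on the log2 scale, and without those lettered G, Nars in BrefA over DMSO wells stood at 1.10, both still past the threshold of edgeR's test. Hars in BrefA over Halofuginone wells ran between 1.11 and 2.42 over the settings tried, highest without the wells lettered G, and lost its call without those lettered E, F or H, on each plate alone, with DESeq2 and with the Rn45s share in the fit. Without BrefA libraries Hars did not pass the filter on low counts, so that its test cannot be separated from its level there. Sars in tBHQ over DMSO wells ran between 0.68 and 0.93 and lost its call without the wells lettered E or G, on each plate alone and with no filter.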

How the results depend on the processing

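Of 80 called values of single genes, 34 stayed past the threshold under every setting tried, 77 did with same-named wells summed, and 4 changed sign. All 4 arose with the Rn45s share in the fit: Psat1 Halofuginone vs DMSO at -0.75, Psat1 Halofuginone vs Tunicamycin at -0.64, Psat1 Halofuginone vs Torin at -0.45 and Slc3a2 Halofuginone vs Torin at 0.17 (log2). With that term, the number of listed genes called was 3 for Halofuginone against DMSO, 2 for Halofuginone against Torin and 10 for BrefA against Halofuginone. The share of all tested genes called was then 16.5%, 16.5% and 15.1% in that order, against 40.3%, 36.7% and 40.2% without the term. Rn45s took at least 39.0% in Halofuginone libraries and at most 30.9% in those of all other groups. The term and the compound therefore cannot be told apart in these fits, for the calls lost and for those kept. The cause was not tested.

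On plate 1 alone, 3 genes were called for Torin, 3 for Halofuginone, 5 for Tunicamycin and 2 for Halofuginone against Torin. Of all tested genes, 8.93%, 24.8%, 7.48% and 20.4% were called there in that order. On plate 2 alone, 2 were called for DMSO against NoStim, 2 for Torin, 0 for Tunicamycin, 2 for Halofuginone against Torin and 7 for Tunicamycin against BrefA, from fewer libraries. The shares of all tested genes called on plate 2 were 17.8%, 6.69%, 0.10%, 22.5% and 7.66% in that order. With no filter on low counts, 39 listed genes entered, of which 23 were called for BrefA, 1 for Dexa and 9 for Halofuginone against Tunicamycin. Of all genes in that fit, 4.96%, 0.986% and 15.9% were called in that order. With same-named wells summed, 1 gene was called for Dexa (2.94% of all tested genes called) and 3 for Halofuginone against Torin (34.1%). With the 2 groups alone 1 was called for Dexa (4.19%). Leaving out each well letter in turn gave 2 to 5 called genes for Torin (2 without G), 3 to 5 for tBHQ (3 without G) and 2 to 5 for Halofuginone against Torin (2 without F or H). RLE scaling moved the median log2 fold change over all genes to 0.19 for tBHQ and -0.19 for DMSO against NoStim.

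With plate and well letter as a replicate block, the counts were those reported: 6 for Torin, 5 for tBHQ, 3 for pGE2, 6 for Halofuginone, 15 for BrefA, 3 for Tunicamycin and 0 for Dexa, Baflo, ZVAD and Caspase-1. The shares of all tested genes called were 17.5%, 37.4%, 12.1%, 40.7%, 18.0% and 5.58% for Torin to Tunicamycin in that order. They were 3.77% for Dexa, 0% for Baflo and ZVAD and 4.67% for Caspase-1. Direct comparisons under the block gave 4 for Halofuginone against Tunicamycin, 5 for Halofuginone against Torin, 13 for Tunicamycin against BrefA and 16 for BrefA against Halofuginone. Wells sharing group and letter on the 2 plates had a mean correlation of 0.156, with 32 of 48 pairs over 0.1. The 8 libraries of a group may therefore not be independent, and SE and p-values that take them so may be too small. With such wells summed, 77 of the 80 called values stayed past the threshold. DMSO and NoStim wells share no letter, so no paired fit was possible there.

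Halofuginone libraries had the lowest totals, and genes with few counts, such as Asns and Mthfd2, had the widest errors there.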
